A study of Mus musculus with 32 samples.

Results

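The contractile genes of smooth muscle were followed through a mouse model of colitis-associated colon cancer. The set holds 10 genes, *Myh11*, *Acta2*, *Actg2*, *Des*, *Cnn1*, *Tagln*, *Smtn*, *Lmod1*, *Mylk* and *Synpo2*, taken by symbol from a count table of 55291 symbols. Each symbol matched a single row, and all 10 had counts in every library, between 31 and 96283 reads. They are genes with a known function in muscle, and earlier results of these data were known when they were chosen.

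RNA-seq was run on whole colon tissue and dissected colon tumors of C57BL/6 mice, 32 libraries in 8 groups. *Dnase1l3*-KO mice, constitutive full-body knockouts of a secreted DNase, were set against WT mice. Colons were untreated (D0, n = 4 KO and 4 WT), or were taken on day 19 after 1 injection of azoxymethane (AOM, 8 mg/kg), a colon carcinogen, and 1 cycle of dextran sulfate sodium (DSS), which injures the colon epithelium (D19, n = 4 and 4). The remaining groups were D80 colons after the same injection and 3 DSS cycles (n = 4 and 4) and the tumors collected at the end (n = 3 KO and 5 WT). Treated mice were 3 months old at injection, and the knockout was present in every cell of the KO mice, so no cell type was targeted. The 32 libraries came from 26 mice, since 6 mice gave both a D80 colon and a tumor.

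Smooth muscle shortens when calcium and calmodulin activate myosin light chain kinase, whose product, phosphorylated myosin, pulls on actin filaments. In the colon this machinery fills the circular and longitudinal muscle layers that move the content along, the thin muscularis mucosae under the crypts, and the walls of blood vessels. Many of its genes carry CArG boxes, the binding sites of serum response factor (SRF), which works with the cofactor myocardin in smooth muscle cells.

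Positions are given on GRCm38 from the GENCODE annotation. The filament genes were *Myh11*, the smooth muscle myosin heavy chain (chr16:14194535-14291372, minus strand), *Acta2*, the smooth muscle alpha-actin (chr19:34241090-34255590, minus strand), and *Actg2*, the gamma-actin typical of gut and other visceral muscle (chr6:83512905-83536265, minus strand). The proteins bound to the thin filament were calponin, from *Cnn1* (chr9:22099216-22109630, plus strand), transgelin or SM22-alpha, from *Tagln* (chr9:45929619-45936058, minus strand), smoothelin, from *Smtn* (chr11:3517523-3540612, minus strand), and leiomodin, an actin nucleator, from *Lmod1* (chr1:135324807-135368065, plus strand). *Mylk* (chr16:34745210-35002420, plus strand) encodes the myosin light chain kinase. *Des* (chr1:75360329-75368579, plus strand) encodes desmin, the muscle intermediate filament, and *Synpo2* (chr3:123076519-123236149, minus strand) encodes an actin-bundling protein of muscle. Summed exon lengths were between 1557 bases (*Actg2*) and 13089 bases (*Synpo2*).

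The promoter table of RefSeq (GRCm38.p6) matched 7 of the 10 genes, and not *Myh11*, *Actg2* and *Tagln*. A CArG box was looked for on both strands of the 250 bases before each start, since it is the shared element this gene set is known for. None of the 7 windows held a full match, against 482 of 32851 promoters (1.47%). With 1 G or C allowed among the 6 bases of its A/T core, 1 of 7 windows held a match, that of *Acta2*, against 8.59% of all promoters. *Acta2* held a pair of such boxes, in capitals in the stretches below. Bases are counted from the RefSeq start, and the sequences are those of the minus strand, the strand of the gene. The RefSeq start used for *Acta2* lies inside the GENCODE span given above, and so do both stretches.
Acta2 bases -94 to -65, box at -84 to -75, chr19:34255438-34255467: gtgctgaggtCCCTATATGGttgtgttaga
Acta2 bases -44 to -15, box at -34 to -25, chr19:34255388-34255417: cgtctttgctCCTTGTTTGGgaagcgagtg
A match of letters is no measurement of binding, and the other windows say only that these letters were absent from 250 bases.

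Some members shared sequence with other genes. For *Tagln*, 1241 of 1988 exon bases (62.4%) were also exon of *Gm48529* on the opposite strand, 16.3% of the *Smtn* exon bases were shared with *Gm11946*, 5.86% of those of *Des* with *Gm15179*, and 4.87% of those of *Mylk* with *E130310I04Rik*. Whether counting used strand is not given in the sources used here, so reads from such bases cannot be told apart, and the levels of *Tagln* above all are uncertain. *Gm48529* itself had between 0.557 and 4.03 CPM. CPM (counts scaled to a common library size with TMM factors) are used throughout. *Acta2* and *Actg2* have near-identical paralogs in *Acta1*, the skeletal actin, and *Actc1*, the cardiac actin. These averaged 4.24 to 8.62 CPM for *Acta1* and at most 0.851 CPM for *Actc1* over the 8 groups, far under either member. The skeletal myosins *Myh1* and *Myh4* averaged at most 0.234 CPM in any group.

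Library totals were between 18951121 and 47623288 counts (median 34333250.5), which puts even the lowest member count, 31 reads for *Lmod1* in a tumor, above 0 in every library. *Dnase1l3* itself had 1.65 to 5.08 CPM in KO and 1.81 to 3.61 CPM in WT libraries at D0, 0.702 to 6.78 against 7.22 to 8.70 CPM at D19, 3.04 to 11.8 against 3.14 to 8.85 CPM at D80, and 3.54 to 8.84 against 2.06 to 10.2 CPM in tumors. Only at D19 did the genotypes not overlap. The authors reported a marked reduction of its expression in every intestinal segment of this KO strain. They also reported that serum of KO mice was defective in digesting genomic DNA and the chromatin of isolated nuclei. The counts at D0, D80 and in tumors did not show such a reduction. The sources used here do not say which segment of the gene was deleted, so its counts cannot serve as a check of the genotype. KO and WT below are the genotypes as labelled.

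Before any comparison, 2 libraries have to be named because they stand apart in these genes. In the KO D19 library of mouse 811, *Myh11* had 36.8 CPM, against 591 to 843 CPM in the other 3 KO D19 libraries. In the WT D80 library of mouse 581, *Myh11* had 73.6 CPM, against 839.6 to 1229.8 CPM in the other 3. *Lmod1* was also low there, at 5.40 CPM in 811 (others 33.0 to 37.9) and 5.62 CPM in 581 (others 33.4 to 49.9). The 3 shortest members went the other way. In 581, *Acta2* was 2.37 times, *Actg2* 2.58 times and *Tagln* 3.26 times the mean of the other libraries, while *Synpo2*, *Smtn*, *Des* and *Mylk* were at 0.403, 0.557, 0.628 and 0.737 times. The mitochondrial share of counts was 15.1% in 581, the highest of all libraries, and 10.6% in 811, against 5.09% to 7.04% in the other KO D19 and 5.43% to 5.83% in the other WT D80 libraries. The KO tumor of mouse 544 had 8.02%, against 3.33% and 3.35% in the other KO tumors, and *Myh11* at 0.487 times their mean. The part of RNA quality in these patterns was not tested, and values that rest on these 3 libraries are given with and without them.

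**Figure D1:**
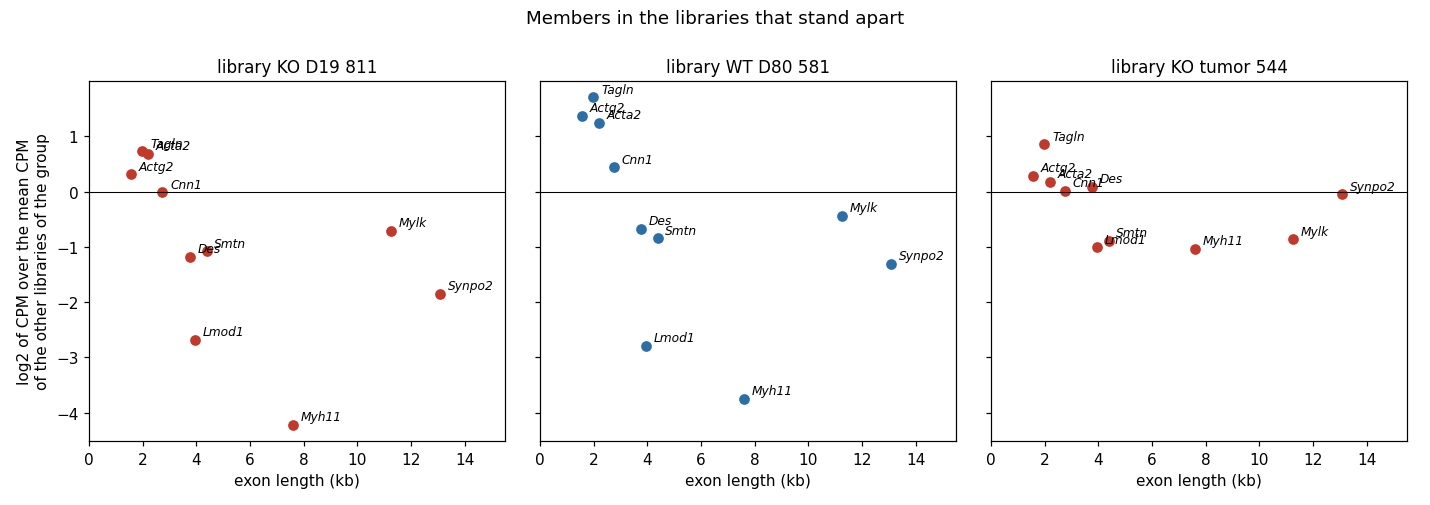
Each point is a member gene in 1 of the 3 libraries that stand apart. The horizontal axis is the summed exon length in kb and the vertical axis the log2 of its CPM over the mean CPM of the other libraries of the same group. In KO D19 811 and WT D80 581 *Actg2*, *Tagln* and *Acta2*, the 3 shortest genes, lie above 0, and *Des*, *Lmod1*, *Smtn*, *Myh11*, *Mylk* and *Synpo2* lie below 0, with *Myh11* at -4.21 in 811 and -3.75 in 581.

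The 10 genes together took less of all counts at D19 and D80 than at D0, and least in tumors. Their share was 0.719% ± 0.175 in KO and 1.13% ± 0.279 in WT colon at D0 (SD, n = 4 each), 0.409% ± 0.172 in KO and 0.639% ± 0.125 in WT colon at D19, and 0.337% ± 0.0694 in KO and 0.407% ± 0.0900 in WT colon at D80. In tumors it was 0.0223% ± 0.00743 (SD, n = 3) in KO and 0.0400% ± 0.0276 (SD, n = 5) in WT mice. In whole tissue, fewer muscle cells and less RNA of these genes per cell cannot be told apart.

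**Figure D2:**
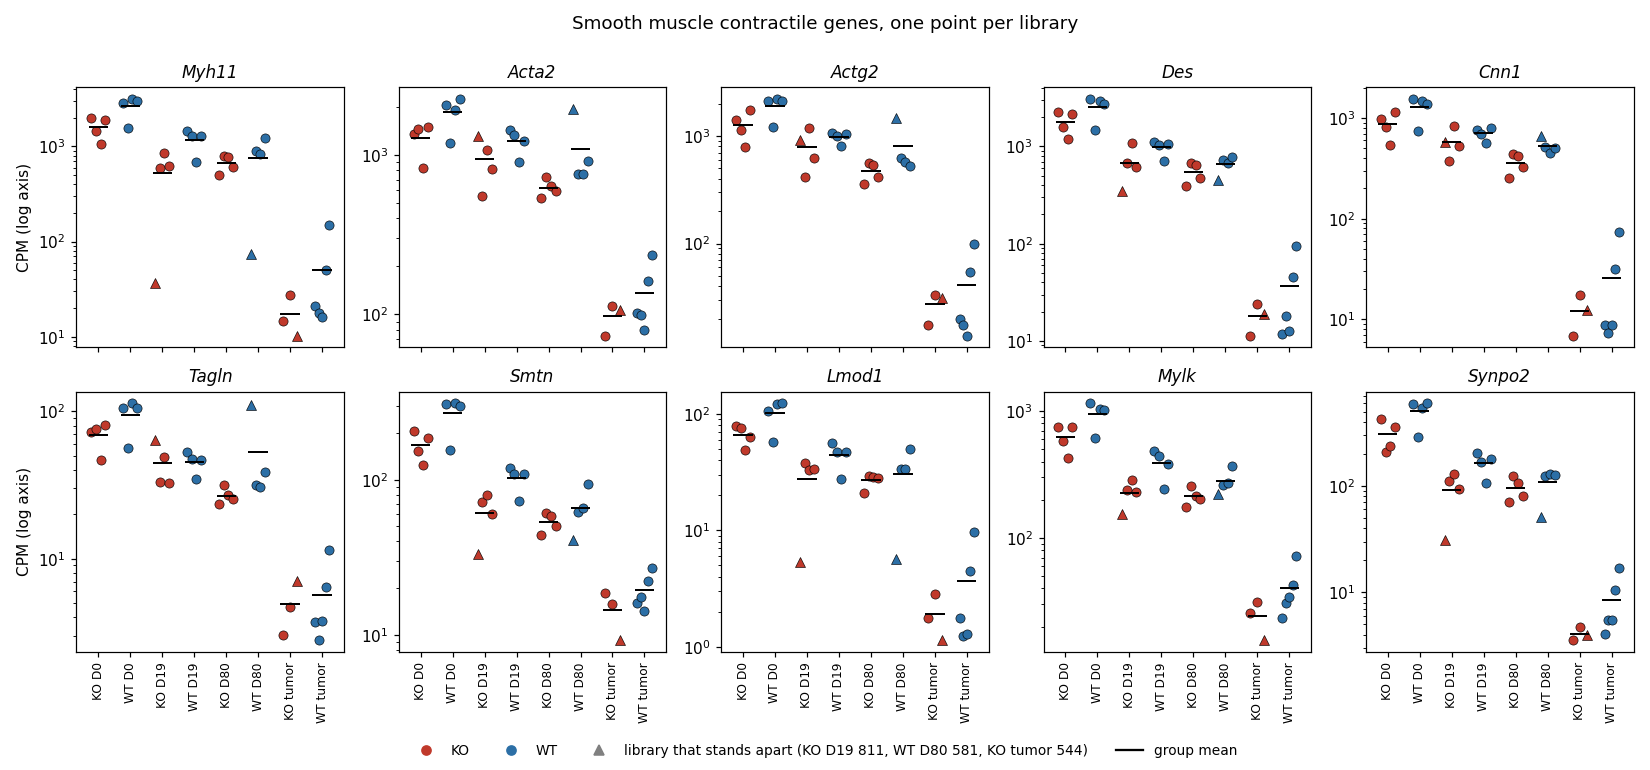
Level of each member in every library, in CPM on a log axis, with KO left of WT at each stage, horizontal bars for group means and triangles for the 3 libraries that stand apart. In both genotypes the group means of all 10 genes are highest at D0 and lowest in tumors, where *Myh11* lies between 10.3 and 149 CPM.

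Per kb of exon, the order of the genes at D0 was the same in all 4 WT libraries. *Actg2* led with a mean of 1232 CPM per kb (SD 304), followed by *Acta2* with 844, *Des* with 681, *Cnn1* with 469.7 and *Myh11* with 349 CPM per kb. *Mylk* (84.8), *Smtn* (61.3), *Tagln* (47.8), *Synpo2* (38.4) and *Lmod1* (25.7 CPM per kb) came well below these 5, and *Lmod1* ranged from 14.5 to 31.0 CPM per kb. The place of *Tagln* is uncertain, since 62.4% of its exon bases are shared with *Gm48529*. The ranges of neighbours in this order overlapped, with 1 gap between *Myh11* (lowest library 208 CPM per kb) and *Mylk* (highest 102). In WT tumors *Acta2* led with 61.9 CPM per kb (range 36.5 to 108), ahead of *Actg2* with 26.2 (range 8.94 to 63.6) in 5 of 5 libraries. *Des* (9.69 CPM per kb) stood above *Cnn1* (9.49) in 3 of 5 WT tumors, so their order did not differ beyond the spread. KO tumors also had *Acta2* first, with 44.4 CPM per kb, and *Actg2* next, with 17.5 CPM per kb, in 3 of 3 libraries.

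The largest differences lay between tumors and D80 colon. D80 libraries were of whole colon and tumor libraries of dissected tumors, and how much muscle wall a tumor sample held is not given. A change within tumors and this difference in the tissue taken cannot be told apart. All 10 genes fell in tumors of both genotypes, where a call asked for more than a 2-fold change and a Benjamini-Hochberg adjusted p below 0.05 in edgeR's quasi-likelihood test. Of all 19457 genes tested in KO, 16.4% fell and 10.3% rose, and of 19007 in WT, 13.5% fell and 8% rose. The median log2 fold change of the 10 was -3.97 in KO and -3.56 in WT, where the medians over all genes were 0.01 and -0.06. The groups did not overlap for 10 of 10 genes in KO (28.1% of all genes lay apart and lower) and for 8 of 10 in WT (13.9%). The exceptions, *Myh11* and *Lmod1*, overlapped through the WT D80 library 581.

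Myosin and desmin fell furthest in KO mice. *Myh11* had 14.8, 27.4 and 10.3 CPM in KO tumors, against 501, 799, 772 and 604 CPM in KO D80 colon, a log2 fold change of -5.30 (SE 0.42, edgeR adjusted p = 0.000208). *Des* had 11.4, 23.9 and 18.8 CPM in KO tumors, against 396, 674, 638 and 473 CPM in KO colon (log2 fold change -4.95, SE 0.38, edgeR adjusted p = 0.000187). For both genes every tumor lay over 10 times under every colon of the same genotype. *Cnn1*, whose product calponin inhibits the actomyosin ATPase, had 6.89, 17.4 and 12.3 CPM in KO tumors, against 254, 441, 417 and 329 CPM in KO colon (log2 fold change -4.91, SE 0.41). *Synpo2* (-4.58, SE 0.27), *Actg2* (-4.12, SE 0.34) and *Lmod1* (-3.82, SE 0.30) came next.

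WT tumors were more spread. *Myh11* had 21.2, 17.6 and 16.1 CPM in 3 WT tumors and 50.3 and 149 CPM in those of mice 579 and 555, against 73.6, 899.5, 839.6 and 1229.8 CPM in WT D80 colon (log2 fold change -4.01, SE 0.90, edgeR adjusted p = 0.00853). For all 10 genes the tumors of mice 555 and 579 were the highest. *Actg2* had 19.7, 17.6 and 13.9 CPM in the other 3 WT tumors and 53.8 and 99.0 CPM in these, against 1484, 628, 569 and 531 CPM in WT colon (log2 fold change -4.42, SE 0.68, edgeR adjusted p = 0.00135). *Cnn1* (-4.48, SE 0.73) and *Des* (-4.29, SE 0.66) fell to a like extent in WT mice. Even the tumor of mouse 555, the highest, had less of all 10 genes than the colon of the same mouse, with a median log2 ratio of -2.39. In the other 5 mice that gave both tissues, 10 of 10 genes were lower in the tumor, with median log2 ratios between -4.63 and -3.66.

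*Smtn* and *Acta2* fell less than most members. *Smtn* had 18.5, 15.9 and 9.28 CPM in KO tumors, against 44.3, 61.2, 58.0 and 50.4 CPM in KO D80 colon (log2 fold change -1.91, SE 0.24, edgeR adjusted p = 0.000907). In WT mice it had 16.1, 17.6, 14.2, 22.2 and 27.1 CPM in tumors, against 41.2, 62.1, 65.3 and 94.2 CPM in colon (log2 fold change -1.87, SE 0.27). Smoothelin marks contractile smooth muscle, and its change was the smallest of the 10 in both genotypes. *Acta2* had 73.5, 113 and 106 CPM in KO tumors, against 538, 723, 639 and 594 CPM in KO colon (log2 fold change -2.70, SE 0.24). In WT mice *Acta2* had 102, 98.3, 80.1, 163 and 236 CPM in tumors, against 1933, 764, 760.3 and 921 CPM in colon (log2 fold change -3.13, SE 0.43). *Acta2* is also made by myofibroblasts and pericytes, and not by smooth muscle alone. *Mylk* had log2 fold changes of -3.16 (SE 0.27) in KO and -2.91 (SE 0.34) in WT mice, and *Tagln* of -2.46 (SE 0.30) in KO and -3.34 (SE 0.54) in WT mice. Without the libraries that stand apart, 10 of 10 were again called in both genotypes and the medians were -3.89 in KO and -3.72 in WT.

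**Figure D3:**
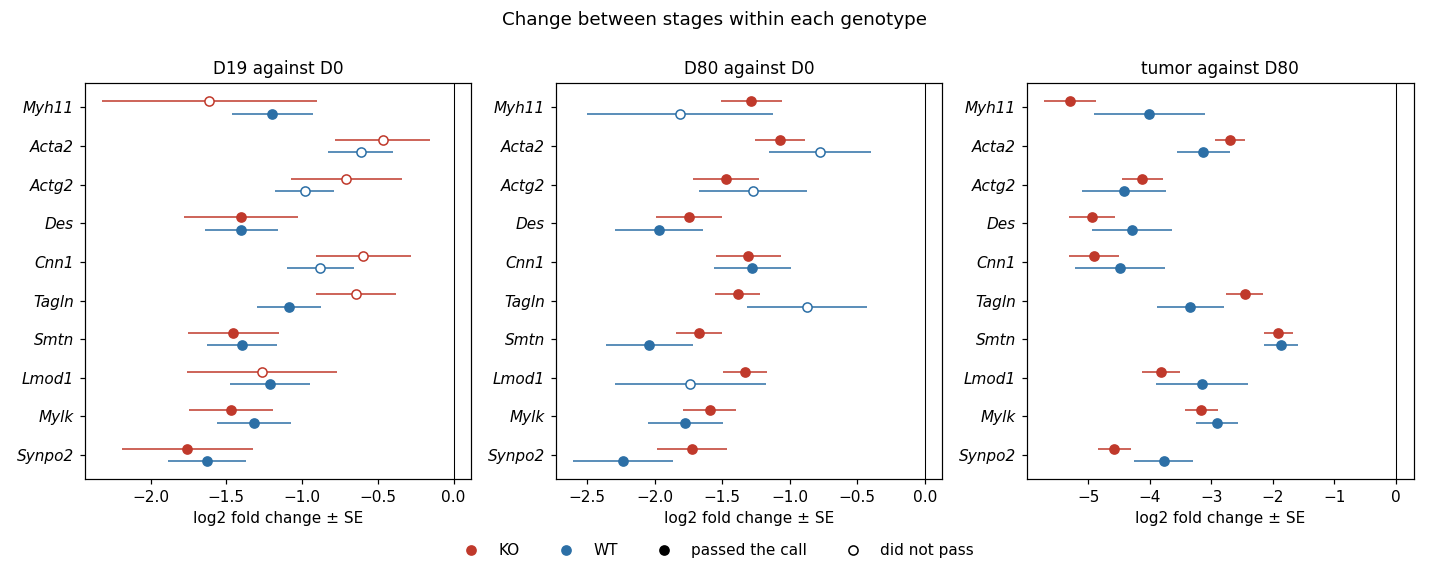
Log2 fold change with its SE (horizontal axis) of each member between stages, KO in red above WT in blue, with filled points for genes that passed the call of the test. In the right panel all 20 points are filled, from -5.30 for *Myh11* in KO to -1.87 for *Smtn* in WT, and at D19 and D80 all points lie below 0.

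The first DSS cycle was already followed by lower levels. The number that begins each sample title, of unknown meaning, is never shared between D0, D19 and D80 colon. Changes between these stages therefore cannot be told apart from whatever that number marks. The age of the untreated mice is not given in the sources used here. At D19 against D0, 7 of 10 genes fell in WT colon (4.04% of 18570 genes fell) and 4 of 10 in KO colon (2.52% of 19191), with median log2 fold changes of -1.20 in WT and -1.34 in KO. With libraries scaled by total counts alone, 4 genes were called in WT and 1 in KO (share of all genes not given). *Synpo2* and *Des* led in WT, together with *Smtn*. *Synpo2* had 202, 169, 106 and 179.8 CPM in WT D19 colon, against 594, 285, 535 and 597 CPM in WT D0 colon (log2 fold change -1.63, SE 0.26, edgeR adjusted p = 0.00084). *Des* had 1122, 1035, 701 and 1062 CPM at D19, against 3072, 1461, 2943 and 2756 CPM at D0 (log2 fold change -1.40, SE 0.24). *Smtn* (-1.40, SE 0.23), *Mylk* (-1.32, SE 0.24), *Lmod1* (-1.21, SE 0.26), *Myh11* (-1.20, SE 0.27) and *Tagln* (-1.08, SE 0.21) fell too. The groups did not overlap for 8 of the 10 (19.9% of all genes lay apart and lower). *Acta2* (-0.61, SE 0.21), *Cnn1* (-0.88, SE 0.22) and *Actg2* (-0.98, SE 0.19) had adjusted p-values of 0.037, 0.00859 and 0.00259 but missed the fold change of 2.

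In KO colon at D19 the called genes were *Synpo2*, *Mylk*, *Smtn* and *Des*. *Mylk* had 154, 239.9, 284 and 232 CPM at D19, against 752, 577, 427 and 755 CPM at D0 (log2 fold change -1.47, SE 0.28, edgeR adjusted p = 0.00623). *Synpo2* (-1.76, SE 0.44), *Smtn* (-1.45, SE 0.30) and *Des* (-1.41, SE 0.38) had adjusted p-values of 0.0247, 0.00971 and 0.0357. *Myh11* had -1.61 with an SE of 0.71, and its 4 KO D19 libraries lay between 36.8 and 843 CPM. The groups did not overlap for 6 of the 10 genes (7.65% of all genes lay apart and lower). Without library 811, 5 genes were called and the median was -1.06, with *Myh11* at -1.23 and *Des*, *Smtn*, *Mylk* and *Synpo2* at -1.19, -1.25, -1.32 and -1.47. *Lmod1* (-0.93) and *Tagln* (-0.85) then missed the fold change of 2. The count was 2 without the KO D0 library 852 or 872 or the KO D19 library 804. The share of all genes called in these reduced fits is not given here.

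At D80 against D0, all 10 genes fell in KO colon (7.63% of 19031 genes fell) and 5 of 10 in WT colon (3.25% of 18419), with medians of -1.43 in KO and -1.75 in WT. In KO, *Des* had 396, 674, 638 and 473 CPM at D80, against 2262, 1588, 1184 and 2141 CPM at D0 (log2 fold change -1.75, SE 0.24, edgeR adjusted p = 0.000257). *Smtn*, with 44.3, 61.2, 58.0 and 50.4 CPM against 206, 154, 125 and 185 CPM, had the smallest adjusted p of the set (4.2e-05, log2 fold change -1.67, SE 0.17). No KO D80 library overlapped a KO D0 library in any of the 10 genes (21.3% of all genes lay apart and lower), and the smallest fall was that of *Acta2* (-1.07, SE 0.19).

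In WT colon at D80 the called genes were *Synpo2* (-2.23, SE 0.37), *Smtn* (-2.04, SE 0.32), *Des* (-1.97, SE 0.33), *Mylk* (-1.77, SE 0.28) and *Cnn1* (-1.28, SE 0.29). Without library 581 all 10 genes were called (share of all genes not given), with a median of -1.60. *Acta2* then had -1.21 in place of -0.78, *Tagln* -1.52 in place of -0.87 and *Myh11* -1.44 in place of -1.81. *Acta2* had 764, 760.3 and 921 CPM in the other 3 WT D80 libraries, against 2060.2, 1182, 1927 and 2245 CPM at D0. The groups did not overlap for 7 of the 10 with all libraries (10.8% of all genes lay apart and lower), and DESeq2 then called 8 of 10 (3.9% of its genes).

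Between D80 and D19 the levels differed little. By edgeR 0 of 10 genes were called in KO (0.441% of 19523 genes fell) and 0 of 10 in WT (0.00521% of 19202), and DESeq2 also called 0 in both (1.02% of its genes in KO and 0.194% in WT). At an unadjusted p under 0.05, 3 genes were lower in KO, among 6.86% of all genes, and 1 in WT, among 2.47%. *Tagln* in KO had 23.5, 31.4, 27.1 and 25.3 CPM at D80, against 63.4, 33.1, 48.9 and 32.7 CPM at D19 (log2 fold change -0.76, SE 0.26, edgeR adjusted p = 0.268), the single member whose groups did not overlap (4.71% of all genes lay apart and lower). The median log2 fold change was -0.27 in KO and -0.50 in WT, and without libraries 811 and 581 it was -0.40 in KO and -0.43 in WT, with 0 genes called in each.

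KO colon at D0 had lower values than WT colon in all 10 genes, but none passed the test. The log2 fold changes lay between -0.72 (*Myh11*, SE 0.26) and -0.45 (*Tagln*, SE 0.22), with a median of -0.59, where the median over all genes was 0.01. By edgeR 0 of 10 were called (0% of 18175 genes in either direction) and by DESeq2 also 0 of 10 (0.0776% of its genes were called lower). At an unadjusted p under 0.05, 6 of 10 were lower, among 5.47% of all genes. Members move together across libraries, so these counts are not 10 separate measurements. *Myh11* had 1988, 1449, 1051 and 1911 CPM in KO colon, against 2871, 1578, 3146 and 3022 CPM in WT colon (edgeR adjusted p = 0.469). *Smtn* had 206, 154, 125 and 185 CPM in KO, against 308, 155, 311 and 299.5 CPM in WT (log2 fold change -0.67, SE 0.23, edgeR adjusted p = 0.468). In both genes the groups overlapped through 1 WT library, that of mouse 918, and no member was without overlap (1.64% of all genes lay apart and lower). With the prefix of the sample titles as a block, the median was -0.83 and 0 genes were called. Lists of other cell types also had medians below 0 at D0, -0.60 for the 18 enteric neuron and glia genes, -0.48 for the 12 fibroblast and matrix genes and -0.36 for the 8 pericyte and vascular smooth muscle genes tested, against -0.12 for the 12 epithelial genes. In each of these lists 0 genes were called, and their part in the member levels was not tested.

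*Hoxb13*, a transcription factor of the distal end of the colon, had no called difference at D0 but varied widely among the libraries. It had 140.4, 154, 129 and 4.03 CPM in KO, against 13.3, 7.44, 23.2 and 55.3 CPM in WT colon (log2 fold change 2.12, SE 0.84, edgeR adjusted p = 0.487). The KO library with the lowest *Hoxb13*, that of mouse 872, had *Acta2* at 1499, *Actg2* at 1765 and *Mylk* at 755 CPM, the highest of the KO D0 libraries. Its *Myh11*, at 1911 CPM, lay within the range of the other KO libraries, as did its *Des* and *Smtn*. Across stages *Hoxb13* rose in WT colon at D19 (2.24, SE 0.50, edgeR adjusted p = 0.00476) and at D80 (2.40, SE 0.61, edgeR adjusted p = 0.0329), beside the falls of the members there. In KO colon it had a log2 fold change of -0.24 (SE 0.73, edgeR adjusted p = 0.796) at D80 against D0, where all 10 members fell. The other posterior Hox genes did not all go with it. Of this list, 4 of 6 tested rose and 0 fell in WT colon at D19 (9.33% of all genes rose), and 2 of 4 rose at D80 (7.07%), where *Hoxa11* fell (-1.08, SE 0.25, edgeR adjusted p = 0.021). In KO colon 0 of 6 were called at either time. Between KO and WT at D0 0 of 4 were called, with *Hoxa11* at -0.47 and *Hoxa13* at -0.01. *Hoxd13* went with *Hoxb13* there (3.21, SE 1.02, edgeR adjusted p = 0.468), at low means of 3.37 CPM in KO and 0.327 CPM in WT colon. The part of the position along the colon in the member levels was not tested.

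At D19, KO colon again had lower fitted values in all 10 genes, with a median of -0.62, and 0 were called by edgeR (0% of 19545 genes) or DESeq2 (0.434% of its genes were lower). *Mylk* had 154, 239.9, 284 and 232 CPM in KO, against 483, 443, 241 and 385 CPM in WT colon (log2 fold change -0.77, SE 0.28, edgeR adjusted p = 0.401). *Smtn* had -0.75 (SE 0.28, edgeR adjusted p = 0.423), and these were the 2 genes with an unadjusted p under 0.05, among 4.04% of all genes. *Tagln* was level, at -0.01 (SE 0.27). Without library 811 the median was -0.48. At D80 the median was -0.38, with 0 genes called by edgeR (0% of 18899) or DESeq2 (0.0533% lower) and 3 at an unadjusted p under 0.05, among 2.76%. Those were *Acta2* (-0.87, SE 0.36), *Cnn1* (-0.61, SE 0.25) and *Tagln* (-1.03, SE 0.44). *Acta2* had 538, 723, 639 and 594 CPM in KO, against 1933, 764, 760.3 and 921 CPM in WT colon. *Acta2* and *Cnn1* did not overlap between the genotypes (1.92% of all genes lay apart and lower). Without library 581, *Acta2* had -0.41 and *Tagln* -0.35, and the median of the 10 was -0.45.

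In tumors the call was an unadjusted p under 0.01 and a fold change over 2, a looser rule than in colon. By this rule 0 of 10 genes differed between KO and WT tumors in edgeR (0.0422% of 18961 genes were lower and 0.264% higher) and 0 in DESeq2 (0.153% lower), and 0 had an unadjusted p under 0.05, among 1.16% of all genes. The median was -0.82, the largest single value that of *Myh11* (-1.52, SE 0.77). Without the KO tumor of mouse 544 the median was -0.68 and *Myh11* had -1.27, with 0 genes called. The WT tumors of mice 555 and 579 were the highest of the WT group in every member, and without that of mouse 555 the median was -0.21. *Cnn1* had 6.89, 17.4 and 12.3 CPM in KO tumors, against 8.68, 7.37 and 8.87 CPM in the other 3 WT tumors and 31.9 and 73.0 CPM in these. Sample titles begin with a number whose meaning the labels do not give, and the tumors of KO mice 543 and 544 and of WT mice 541 and 542 share it (76). With this number as a block the median turned to 0.42, and *Actg2*, at 1.07, passed the looser rule as higher in KO (share of all genes not given). *Actg2* had 33.4 and 31.0 CPM in those KO tumors, against 17.6 and 13.9 CPM in those WT tumors.

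**Figure D4:**
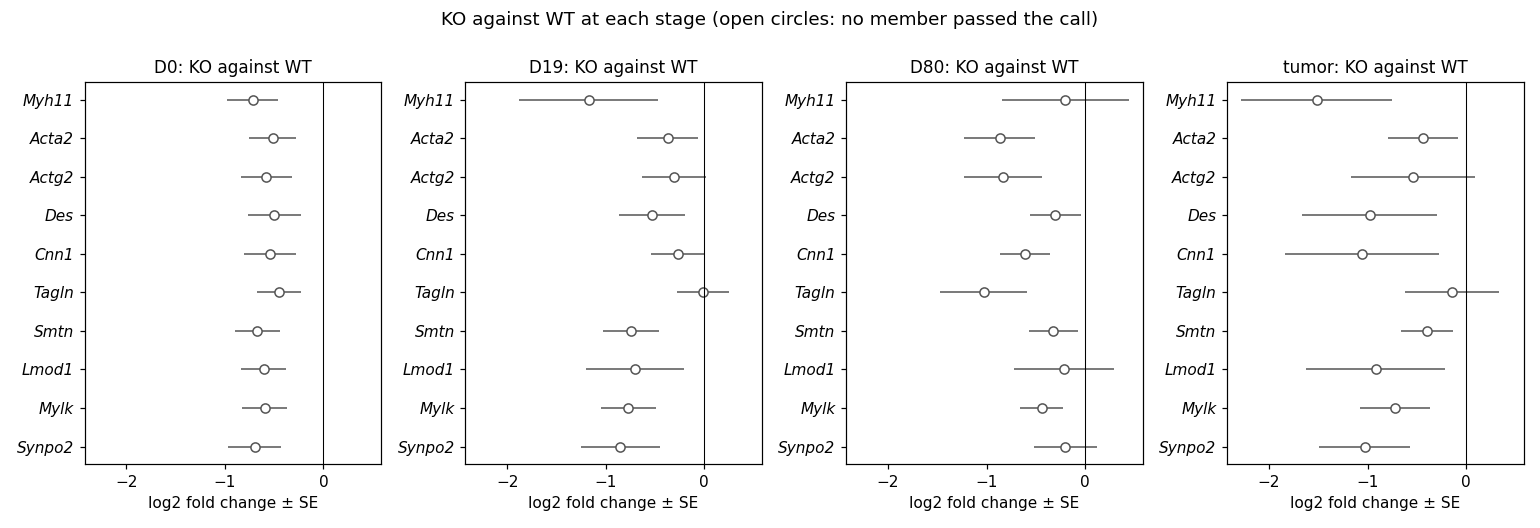
Log2 fold change of KO against WT with its SE (horizontal axis) for each member at each stage. All 40 points lie below 0 and all are open, since no gene passed the call, and the medians are -0.59, -0.62, -0.38 and -0.82 from left to right.

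The changes between stages were compared between genotypes with an interaction term. For D19 against D0 and D80 against D0, 0 of 10 genes were called, with medians of -0.03 and 0.21, and edgeR called 0.0298% of 20149 and 0% of 19668 genes as lower. For tumor against D80 it was also 0 of 10 (0% of 20391), with a median of -0.34. With the mouse as a block, for the 6 mice that gave both tissues, that median turned to 0.15, with 0 genes called. Higher calls were 0% of all genes in the 3 tests. No member had an unadjusted p under 0.05, where 3.6% and 4.55% of all genes were lower and higher for D19, 4.39% and 3.45% for D80, and 2.18% and 9.52% for tumors. DESeq2 called 0 members as well (0.45%, 0.109% and 0% of its genes were lower). The widest values were those of *Myh11* (-1.30, SE 1.07) and *Tagln* (0.90, SE 0.68) for tumors, with adjusted p-values of 0.607 and 0.585. With errors of this size the tests do not show that the genotypes respond alike.

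The balance of the 2 smooth muscle actins was compared by stage. *Actg2* over *Acta2*, as the log2 of the ratio of CPM + 1, was -0.04 ± 0.26 in KO and 0.05 ± 0.11 in WT colon at D0 (SD, n = 4 each). At D19 it was -0.29 ± 0.29 in KO and -0.31 ± 0.14 in WT colon, and at D80 -0.43 ± 0.16 in KO and -0.47 ± 0.22 in WT colon. In tumors it was -1.83 ± 0.16 (SD, n = 3) in KO and -2.0 ± 0.55 (SD, n = 5) in WT mice. Each of the 8 tumors lay below each of the 24 colons. The difference between tumor and D80 colon was -1.40 in KO (two-sided exact permutation test, p = 0.0286, the smallest that 3 against 4 samples allow) and -1.53 in WT (p = 0.0159 by the same exact permutation test). These tests did not use the pairing of tumor and colon from the same mouse. Over the 12 comparisons made, the adjusted p was 0.0858 for both, so neither passed 0.05. In most of the 12 the group sizes allowed no exact permutation p below 0.0286, which limits what the adjusted values can show. The differences of WT D19 (-0.36) and WT D80 (-0.52) against WT D0 also had an exact permutation p of 0.0286 and an adjusted p of 0.0858. The genotypes differed by -0.09 to 0.17 at the 4 stages, with exact permutation p-values of 0.643 to 0.857.

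**Figure D5:**
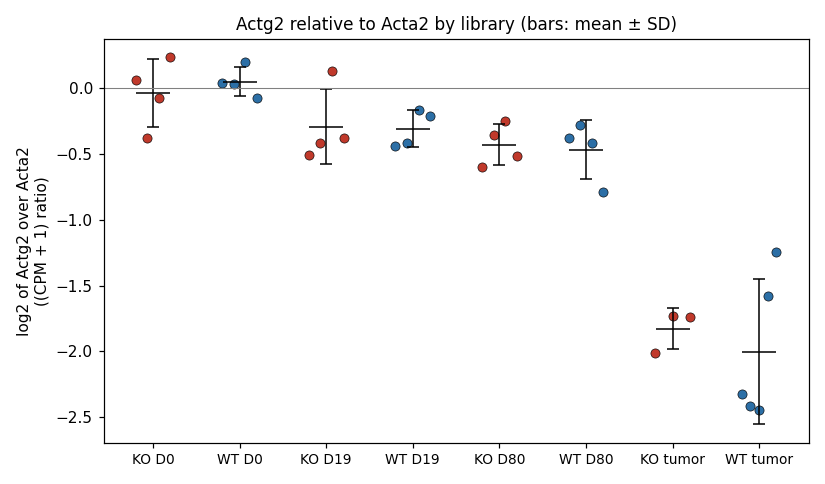
Log2 ratio of *Actg2* to *Acta2* in each library (vertical axis) by group, with KO in red left of WT in blue and bars for mean ± SD. Colon libraries lie between -0.79 and 0.24 and tumors between -2.44 and -1.25.

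The members resembled each other across the 32 libraries to different degrees. As a description, the profile of each gene, its log2 CPM centred on its own mean, was set against the mean profile of the other 9, and the root mean square of the difference was taken. *Mylk* lay closest, at 0.37 log2 units, then *Synpo2* at 0.42 and *Lmod1* at 0.57. *Myh11* lay furthest, at 1.02, followed by *Smtn* at 0.86 and *Tagln* at 0.77. The libraries share their depth and their tissue, and a gene's low value in library 811 or 581 enters this measure. Outside the set, the 8 genes with the profile nearest to the members' mean, among 12657 genes with a mean of at least 5 CPM, were *Stum* (0.24), *Ppp1r12b* (0.29), *Myl9* (0.31), *Tpm2* (0.35), *Pgm5* (0.35), *Pdlim3* (0.40), *Rims1* (0.42) and *Tmem252* (0.45). Over all those genes the median was 2.06 and the first percentile 0.83. Of the 8, *Myl9* encodes the regulatory light chain that the *Mylk* kinase phosphorylates, *Ppp1r12b* a subunit of the opposing phosphatase, *Tpm2* a tropomyosin, and *Pgm5* and *Pdlim3* proteins of muscle adhesion and Z-disc structures.

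Partners of contraction, a list of 32 genes that includes light chains, tropomyosins and adhesion proteins, fell in part. In tumors against D80 colon 17 of 32 fell in KO (16.4% of all genes) and 15 fell and 1 rose in WT (13.5% and 8% of all genes), with medians of -1.07 and -0.92. In WT the smallest p-values were those of *Pdlim3* (-3.67), *Ppp1r12b* (-3.32), *Prkg1*, the cGMP-dependent kinase that relaxes smooth muscle (-3.35), and *Myl9* (-3.34). In KO they were those of *Pgm5* (-5.05), *Tns1* (-3.07), *Myl9* (-3.25) and *Prkg1* (-3.07). At D19 against D0, 3 fell and 1 rose in KO colon, where 2.52% of all genes fell and 8.95% rose, and 11 fell in WT colon, where 4.04% of all genes fell. At D80 against D0, 10 fell and 1 rose in KO colon, where 7.63% of all genes fell and 13.4% rose, and 11 fell in WT colon, where 3.25% fell.

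Genes of excitation and calcium handling were called in both directions. At D19 against D0, 2 of 18 fell and 3 rose in KO colon (2.52% and 8.95% of all genes), and 4 fell and 1 rose in WT colon (4.04% and 9.33%). At D80 against D0, 4 of 18 fell and 1 rose in KO colon (7.63% and 13.4% of all genes), and 3 fell in WT colon (3.25%). In tumors against D80 colon 13 of 18 tested fell in KO (16.4% of all genes), among them *Chrm2*, a muscarinic receptor of smooth muscle (-5.50), *Kcnma1*, the large-conductance potassium channel (-2.93), and *Gucy1a1* and *Gucy1b1*, the nitric oxide receptor (-3.35 and -2.43). Of 17 tested in WT tumors, 11 fell and 1 rose (13.5% and 8% of all genes), with *Chrm3* (-3.33) and *Pln*, the phospholamban that holds back the calcium pump (-5.68), among the 4 smallest p-values. *Pln* was also called at D19 against D0, with log2 fold changes of -2.42 (SE 0.43) in KO and -2.04 (SE 0.35) in WT colon.

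Among the regulators of the set, *Myocd*, the gene of myocardin, followed the members. It averaged 10.03 ± 2.84 CPM in KO and 17.3 ± 4.73 CPM in WT colon at D0 (SD, n = 4 each), and 4.49 ± 3.25 and 5.57 ± 0.764 CPM at D19. In D80 colon it averaged 3.89 ± 0.939 CPM in KO and 3.69 ± 2.27 CPM in WT mice, and in tumors 0.473 ± 0.271 CPM in KO and 0.663 ± 0.479 CPM in WT mice. Its fall in tumors was called in both genotypes (-3.06, SE 0.43, in KO and -2.58, SE 0.66, in WT). Its partner *Srf*, expressed in most cell types, averaged 30.9 CPM in KO and 36.6 CPM in WT tumors, against 41.0 CPM in KO and 39.2 CPM in WT D80 colon, and was not called in tumors. Of the 13 regulators tested, 4 fell in KO tumors (16.4% of all genes) and 2 in WT tumors (13.5%).

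Markers of other cell types moved beside the members, and their part in the member levels was not tested. In tumors, where 16.4% of all genes fell in KO and 13.5% in WT, enteric neuron and glia genes fell in 13 of 17 tested in KO and 14 of 16 in WT, with medians of -3.36 and -3.73, close to the members' own. Their summed level was 34.2 to 52.0 CPM in KO tumors against 86.6 to 115 CPM in KO D80 colon. Markers of the interstitial cells of Cajal, the pacemaker cells of the muscle wall, fell in 4 of 5 in both genotypes, with *Kit* at -2.65 in KO and -2.60 in WT. *Ano1*, of the same list, did not fall, with means of 118 CPM in KO tumors and 118 CPM in KO D80 colon. In WT mice the means of *Ano1* were 149 CPM in tumors and 122 CPM in D80 colon. Epithelial markers had medians of -0.20 and -0.39, and their sum was 8799 to 14551 CPM in KO tumors against 14982 to 17797 CPM in KO D80 colon. Fibroblast and matrix genes fell in 8 of 12 in KO and 4 of 12 in WT tumors. *Rgs5*, a pericyte marker, fell in both (-1.45 in KO and -1.67 in WT tumors). It still had 50.9 to 55.5 CPM in KO and 43.1 to 66.6 CPM in WT tumors. Its list of 9 genes summed to 129 to 135 CPM in KO tumors, against 256 to 294 CPM in KO D80 colon. In WT mice the sums were 108 to 177 CPM and 159 to 345 CPM. *Notch3*, of the same list, averaged 5.34 CPM in KO and 6.41 CPM in WT tumors. In D80 colon *Notch3* averaged 8.78 CPM in KO and 6.66 CPM in WT mice, so *Rgs5* does not stand for the whole list.

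At D19 against D0 the calls of fibroblast, leukocyte and endothelial markers were mostly higher, where 8.95% of all genes rose in KO and 9.33% in WT. Fibroblast and matrix genes rose in 12 of 12 tested in KO and in 10 of 12 in WT, leukocyte markers in 8 of 8 in both, and endothelial markers in 7 of 8 in both. The summed fibroblast level was 1907 to 6173 CPM in KO D19 colon against 445 to 619 CPM in KO D0 colon. Epithelial sums were lower, at 15083 to 17204 CPM in WT D19 against 23260.5 to 35272 CPM in WT D0 colon. In KO they were 12316 to 18291 against 19404 to 34641 CPM. The pericyte and vascular smooth muscle list summed to 326 to 395 against 520 to 987 CPM in WT colon. In KO it summed to 217 to 387 against 367 to 643 CPM. Of that list, *Rgs5* averaged 199 against 634 CPM in WT colon, but *Notch3* 8.40 against 2.56 CPM. Enteric neuron and glia genes had medians of -0.02 in KO and -0.15 in WT, against -1.34 and -1.20 for the members, and 2 of their 18 rose in each genotype while 1 fell in KO and 2 in WT. Interstitial cell markers had medians of -0.36 in KO and -0.19 in WT. CPM with TMM factors are relative levels, and the median log2 fold change over all genes at D19 was 0.03 in KO and 0.004 in WT. A rise of other cells' RNA can lower the relative level of the muscle genes, and this cannot be told apart from a loss of their transcripts.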

How the data were processed

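The authors deposited raw counts per gene symbol for 32 libraries. Reads were single-end, 75 nt, checked with FastQC 0.11.5, aligned with STAR to mm10 and counted with Subread, per the submitters' processing notes. The strand setting is not given in the sources used here. Library totals were 18951121 to 47623288 counts.

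Groups came from the labels. Genes passing filterByExpr were tested with edgeR 4.0.16 (TMM factors, quasi-likelihood test with the legacy option, R 4.3.3, limma 3.58.1) on the libraries compared, with p-values adjusted by Benjamini-Hochberg over all genes tested. Calls were made above a 2-fold change with an adjusted p below 0.05, or, between KO and WT tumors, with an unadjusted p below 0.01. The scripts were tested on simulated data. CPM used TMM factors over all 32 libraries, and log2 ratios and profiles a pseudocount of 1 CPM. Alternatives were DESeq2 1.42.0, other scalings and filters (none, or at least 10 counts in each library), a single fit of all libraries, blocks, and leaving out libraries. Most member counts under these alternatives are given without the share of all genes called in the same fit. How far the calls of all genes moved is therefore not shown.

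The 10 members and all lists were chosen with earlier results of these data known. The text counts all 10 members in each comparison but gives the values of only some of them in many, chosen with values known. It also names the 8 nearest profiles, *Dnase1l3* and *Hoxb13*, and of each other list up to 4 genes with the smallest p. Outside this rule and chosen with values known are *Myocd*, *Srf*, *Kit*, *Ano1*, *Rgs5*, *Notch3*, the paralogs *Acta1*, *Actc1*, *Myh1* and *Myh4*, the overlapping genes, and *Pln* at D19. Tumor and D80 colon of 6 mice were paired by the mouse number in the labels, and deviations of the same mouse correlated across genes at 0.0323, 0.08 and 0.267 in WT and 0.101, 0.0371 and 0.2 in KO. P-values measure the spread between mice of 1 group.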

Additional observations from a re-analysis of the deposited data

Results flagged for a closer look

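A test for a single value far from the rest of its group was made for the 10 genes, their share of counts and the ratio of *Actg2* to *Acta2* in the groups of 4 or 5 libraries, 84 sets in all, and 17 stood out in 6 libraries. Chance gives about 1 in 20. The genes move together, so the 17 are not separate events.

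The WT D0 library 918 was the low one in 8 sets. It had *Myh11* at 1578 CPM (others 2871 to 3146), *Actg2* at 1212 CPM (others 2123 to 2208), *Des* at 1461 CPM (others 2756 to 3072) and *Cnn1* at 741 CPM (others 1381 to 1548). *Tagln* was at 56.3 CPM there (others 105 to 113), *Smtn* at 155 CPM (others 299.5 to 311) and *Synpo2* at 285 CPM (others 535 to 597). The 10 genes took 0.709% of its counts, against 1.26% to 1.27% in the other WT D0 libraries.

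The WT D80 library 581 was low in *Myh11* (73.6 CPM, others 839.6 to 1229.8) and *Synpo2* (51.0 CPM, others 124 to 129) and high in *Actg2* (1484 CPM, others 531 to 628). The KO D19 library 811 was low in *Myh11* (36.8 CPM, others 591 to 843) and *Lmod1* (5.40 CPM, others 33.0 to 37.9). The WT D19 library 805 was low in *Myh11* (685 CPM, others 1281 to 1436) and *Des* (701 CPM, others 1035 to 1122). *Acta2* was low in the KO D0 library 915 (829.6 CPM, others 1357 to 1499), and *Lmod1* in the KO D80 library 527 (21.0 CPM, others 28.3 to 29.3).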

How the results depend on the processing

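The fall of all 10 genes in tumors was called in both genotypes under each alternative run and without each library in turn. For KO D80 against D0 the count was 10 without any 1 library and 7 to 10 otherwise, and its median was -1.10 with total counts alone. For WT D19 against D0, 4 genes were called with total counts alone and 4 with all libraries in a single fit (6 to 9 without 1 library). For KO D19 against D0, 1 was called with total counts alone (2 to 5 without 1 library). For WT D80 against D0, DESeq2 called 8, and 10 were called without the libraries that stand apart (4 to 10 without 1 library).

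With the mouse as replicate block, the tumor medians were -3.93 in KO and -4.00 in WT, with 10 genes called in each. The block moved the interaction for tumors to a median of 0.15, with *Cnn1* at 0.16, *Smtn* at 0.16 and *Lmod1* at 0.13, and changed no other call. With the title prefix as a block, KO against WT tumors gave 1 call and a median of 0.42, with *Myh11* at 0.18, *Acta2* 0.34, *Actg2* 1.07, *Des* 0.51, *Cnn1* 0.90, *Tagln* 0.89 and *Lmod1* 0.69, and *Tagln* at D19 turned to 0.17. That fit rests on the 4 tumors that share a prefix.

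The other changes of sign concerned values that passed no test. With total counts alone, *Tagln* was at -0.23 for WT D80 against D19, *Acta2* at 0.14, *Actg2* at 0.26 and *Cnn1* at 0.30 in the D80 interaction, and *Acta2* at -0.16 and *Actg2* at -0.33 in the tumor interaction. *Des* in the D19 interaction was at 0.0051 with DESeq2, 0.0057 with DESeq2-type size factors and 0.017 with no filter, and *Cnn1* in the D80 interaction at 0.030 with no filter and 0.012 with a stricter one. Without the libraries that stand apart, *Tagln* was at -0.43 for WT D80 against D19, and *Myh11* at -0.032 and *Synpo2* at -0.22 for KO D80 against D19. The D19 interaction then had a median of 0.17, with *Acta2* at -0.055, *Des* 0.20, *Smtn* 0.14, *Lmod1* 0.27 and *Synpo2* 0.15. The D80 interaction had *Acta2* at 0.13, *Actg2* 0.28, *Cnn1* 0.10 and *Tagln* 0.13. The tumor interaction had *Acta2* at -0.12, *Actg2* -0.35, *Tagln* -0.18, *Smtn* 0.32 and *Mylk* 0.033. The cause was not tested.

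Leaving out each library in turn gave these ranges where a sign turned. For KO against WT they were -0.26 to 0.11 for *Tagln* at D19, -0.59 to 0.13 for *Myh11* and -0.56 to 0.12 for *Lmod1* at D80, and -0.76 to 0.11 for *Actg2* and -0.54 to 0.29 for *Tagln* in tumors. For WT D80 against D19 they were -0.43 to 0.43 for *Tagln* and -0.59 to 0.0024 for *Acta2*. For KO D80 against D19 they were -0.032 to 0.68 for *Myh11*, -0.22 to 0.26 for *Synpo2*, -0.37 to 0.16 for *Lmod1* and -0.25 to 0.0017 for *Mylk*. In the D19 interaction the median ranged from -0.19 to 0.19, *Des* from -0.32 to 0.21, *Smtn* from -0.21 to 0.16, *Lmod1* from -0.27 to 0.27, *Mylk* from -0.33 to 0.033, *Synpo2* from -0.35 to 0.15 and *Acta2* from -0.055 to 0.34. In the D80 interaction *Actg2* ranged from -0.35 to 0.28, *Cnn1* from -0.18 to 0.22, *Acta2* from -0.44 to 0.13 and *Tagln* from -0.69 to 0.13. In the tumor interaction the median ranged from -0.64 to 0.073, *Acta2* from -0.012 to 0.72, *Actg2* from -0.20 to 0.93, *Smtn* from -0.27 to 0.17, *Des* from -0.92 to 0.059, *Cnn1* from -0.78 to 0.43, *Lmod1* from -1.09 to 0.062 and *Mylk* from -0.49 to 0.039. The actin ratio ranged from -0.18 to 0.026 (KO against WT at D0), -0.13 to 0.087 (D19) and -0.069 to 0.10 (D80), and from -0.21 to 0.0037 for KO D80 against D19.

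The KO tumors were 3, and the lowest member count was 31 reads. Whether depth or the spread within groups limits these comparisons more was not tested.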
